A study of Mus musculus with 12 samples.

Results

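The clustered replication-dependent histone genes supply the H1, H2A, H2B, H3 and H4 proteins that package newly copied DNA. They were taken from the count files as every gene whose name starts with Hist1h, Hist2h, Hist3h or Hist4h, the 4 prefixes of the mouse histone clusters. This gave 69 genes of the 24627 in the files, 2 of them (*Hist1h2al* and *Hist3h2bb-ps*) annotated as processed pseudogenes. Of the 69 genes, 6 reached at least 1 CPM (a gene's counts over the library's total, scaled to the same library size for all) in at least 6 of the 12 libraries and were tested, and 63 did not. The 6 genes were *Hist1h2bc*, *Hist3h2a*, *Hist1h4i*, *Hist3h2ba*, *Hist1h1c* and *Hist1h2ae*, and each of them in fact reached 1 CPM in all 12 libraries.

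RNA-seq was made from 3 male mouse embryonic stem (ES) cell lines at day 2 of differentiation, which was started by taking away LIF. In all 3 lines the endogenous *Xist* gene is under a doxycycline (DOX)-inducible promoter: *Xist* FL makes full-length RNA, the RNA of *Xist* ΔA is without its A repeat, and repeats B and C are deleted in *Xist* ΔB+C. *Xist* ΔB+C was made from the *Xist* FL line by CRISPR/Cas9 and is 1 clone, whereas *Xist* ΔA is a line made earlier. Cells of each line either received DOX at 1.5 μg/ml or none (noDOX), with 2 replicates in each of the 6 groups, and 1 library, *Xist* ΔB+C DOX replicate 2, was made from 100 ng of RNA where the others were made from 1000 ng.

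Each library held between 31337490 and 41240470 counts. *Xist* itself lay between 2.44 and 8.38 CPM in the 6 noDOX libraries and between 557 and 1830 CPM in the 6 DOX libraries, so it set the DOX libraries apart as labelled. By RNA fluorescent in situ hybridization, the study counted *Xist*-coated X chromosomes in only part of the cells of each DOX sample. That share varied between samples, and the DOX differences given here were not adjusted for it. Markers of pluripotency, which ES cells express, were present in every library, with a summed level of between 1901 and 2926 CPM over 7 genes. The study describes the replicates of a group as biological, and the labels do not say whether same-numbered replicates share a culture or a day. The p-values measure only the spread between these samples.

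Histone genes of this kind are transcribed mainly in S phase, when DNA is copied. Their mRNAs usually have no introns and no poly(A) tail. They end instead just after a short hairpin, the histone stem-loop, which is bound by the stem-loop binding protein SLBP, and their transcription depends on the coactivator NPAT. How RNA was selected for these libraries is not given in the sources used here. In bulk RNA, fewer cells in S phase and less histone mRNA per cell cannot be told apart.

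The stem-loop sequences of the genes that were measured are shown with the 5 bases on each side. The capitals mark the 16 bases of the pattern searched (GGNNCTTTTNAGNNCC on the transcript strand, where N is any base). They were read from the GENCODE vM21 transcripts, on mm10, the build of the files, and the coordinates are those of the capitals.
*Hist3h2ba*, chr11:58949349-58949364, plus strand: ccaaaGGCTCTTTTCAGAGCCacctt
*Hist3h2a*, chr11:58955172-58955187, plus strand: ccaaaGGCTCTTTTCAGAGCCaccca
*Hist1h1c*, chr13:23739512-23739527, plus strand: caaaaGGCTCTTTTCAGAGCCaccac
*Hist1h2ae*, chr13:23570668-23570683, minus strand: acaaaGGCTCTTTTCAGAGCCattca
*Hist1h4i*, chr13:22040966-22040981, minus strand: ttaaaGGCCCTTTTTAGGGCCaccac
*Hist1h3c*, the gene just below the filter, chr13:23745047-23745062, minus strand: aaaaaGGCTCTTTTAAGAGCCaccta

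The stem-loop was thus found in 5 of the 6 genes that passed the filter. The annotated transcript of *Hist1h2bc* has 2 exons and does not hold these letters. Among the 63 other histone genes, 39 held the pattern, and among all 55450 genes with an annotated transcript 89 did, or 0.161%. Several histone genes without it had short annotated models, such as *Hist1h4k* at 312 bases and *Hist1h2bl* at 381 bases. A hairpin past the end of a model could not be found, so these genes were not shown to be without one. The annotated length after the hairpin was longer in the genes that passed. There the annotated transcript went on for 151 bases (*Hist1h2ae*), 169 bases (*Hist3h2ba*), 330 bases (*Hist1h4i*), 840 bases (*Hist1h1c*) and 1643 bases (*Hist3h2a*). The median was 330 bases, against 51 bases in the other histone genes that held the hairpin.

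Among genes that held the hairpin, a stretch of more than 100 bases after it was annotated for 5 of the 5 that passed and for 17 of the 39 others. The letters AATAAA, the usual polyadenylation signal, lay in the transcript after the hairpin in 4 of these 5 (not in *Hist1h4i*) and in 9 of the 39. All 9 were among the 17 with more than 100 bases after the hairpin. A short annotated stretch leaves little room for these letters, so this count also follows the annotated length. The longest annotated transcripts had a median of 941.5 bases in the 6 genes that passed and 524 bases in the 63 others. These gene models may differ from the refFlat models with which the reads were counted, and a longer model also collects more read pairs.

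**Figure D1:**
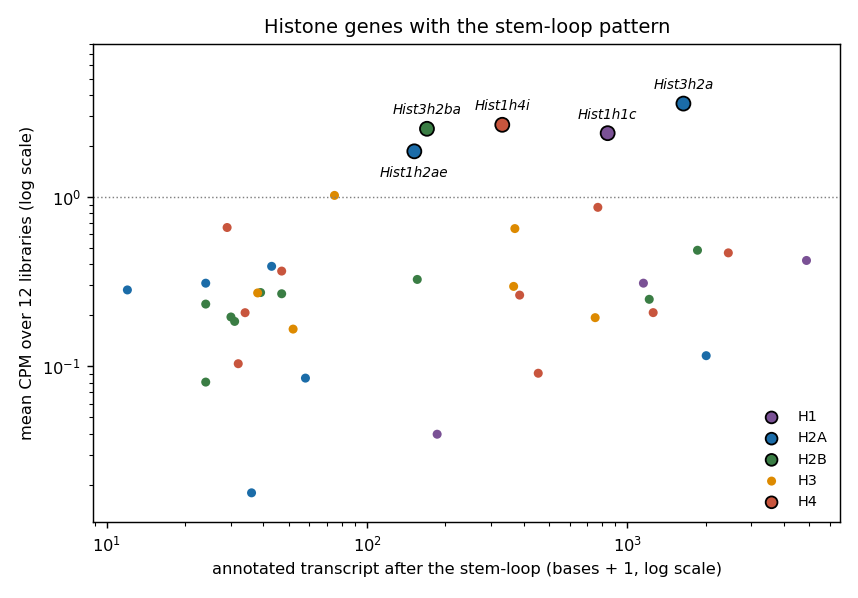
Mean level over the 12 libraries (CPM, log scale) against the annotated transcript length after the stem-loop (bases + 1, log scale) for the 38 histone genes that held the pattern and had at least 1 count. Colours give the histone class, large outlined points are the genes that passed the filter, and the dotted line is 1 CPM; all 5 outlined genes lie to the right of 150 bases, but so do several genes under the line.

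The classes were unevenly represented. The filter kept 1 of 6 H1 genes, 2 of 19 H2A genes, 2 of 19 H2B genes, 1 of 13 H4 genes and none of 12 H3 genes. By cluster, it kept 4 of 55 Hist1 genes, 2 of 3 Hist3 genes, and 0 of 10 Hist2 genes and 0 of 1 Hist4 gene. Just inside the filter lay *Hist1h2ae*, at a mean of 1.86 CPM. Just outside lay *Hist1h3c* (mean 1.02 CPM, at 1 CPM in 4 libraries), *Hist1h4d* (0.868 CPM, 4 libraries), *Hist1h3g* (0.846 CPM, 4 libraries) and *Hist2h2be* (0.814 CPM, 1 library). Of the 63 genes under the filter, 8 had no count in any library. Summed over all 69 genes, histone transcripts made up between 25.1 and 43.7 CPM of a library, and the 6 genes that passed made up between 38.6% and 56.5% of that sum.

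By comparison, the 11 listed replication-independent histone variants were all measured. Such genes are mostly expressed outside S phase too, from polyadenylated mRNAs, though this need not hold for each of them or for all of its mRNA. Together the 11 reached between 3095 and 3863 CPM. Of 11 short RNAs without a poly(A) tail, 9 were in the files and 1 passed the filter, *Rpph1*, the RNA of RNase P, at between 0.781 and 5.74 CPM.

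All 6 genes were expressed at low levels. *Hist1h2bc*, which encodes an H2B, had the highest mean (3.93 CPM, range 2.10 to 5.95), followed by the H2A gene *Hist3h2a* (3.56 CPM, 2.05 to 5.69), the H4 gene *Hist1h4i* (2.67 CPM, 1.84 to 3.31), the H2B gene *Hist3h2ba* (2.52 CPM, 1.64 to 3.59), the linker histone gene *Hist1h1c* (2.38 CPM, 1.45 to 3.61) and the H2A gene *Hist1h2ae* (1.86 CPM, 1.01 to 2.54). These ranges overlapped between all neighbours in the order. Per kilobase of exon the order changed: *Hist3h2ba* stood at 4.11 ± 0.977 CPM per kb (SD, n = 12 libraries), *Hist1h4i* at 3.67 ± 0.573, *Hist1h2bc* at 3.40 ± 1.08, *Hist1h2ae* at 2.64 ± 0.853, *Hist3h2a* at 1.66 ± 0.523 and *Hist1h1c* at 1.52 ± 0.491. Behind each value stood between 32 and 228 counts.

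The spread between replicates differed from gene to gene. The within-group SD on the log2 scale was 0.152 for *Hist3h2ba*, about the 0.156 that counting error alone gives at its depth. It was 0.203 for *Hist1h2bc*, 0.236 for *Hist1h4i*, 0.257 for *Hist3h2a*, 0.382 for *Hist1h2ae* and 0.396 for *Hist1h1c*, each above its counting SD of between 0.127 and 0.187.

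Read assignment was not equally certain. No stretch of 150 bases (the read length) in the transcripts of *Hist3h2ba* or *Hist1h1c* was shared with another annotated gene, and in *Hist1h4i* 2.08% were. The share was 17.4% for *Hist1h2bc* (the most with *Hist1h2bg*), 24.5% for *Hist1h2ae* (with *Hist1h2ad*) and 28.04% for *Hist3h2a*, which lies inside the annotated span of *Trim17* and starts at the same base. The other histone genes had a median of 26.0%. The mapping options kept 1 place at most for a read, and the counting options did not ask for pairs over exons of 2 genes to be counted. Reads in these shared stretches could thus be counted for another gene or left uncounted, so the values of *Hist3h2a*, *Hist1h2ae* and *Hist1h2bc* carry this uncertainty.

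The first comparison asked whether histone genes responded when *Xist* RNA was induced. *Hist3h2ba* was lower in DOX libraries. The gene lies on chromosome 11 (chr11:58948920-58949533, mm10, plus strand, 1 exon) and encodes an H2B. In *Xist* FL cells it stood at 3.59 and 3.11 CPM without DOX and at 2.30 and 1.78 CPM with DOX (replicates 1 and 2). In *Xist* ΔB+C cells it stood at 3.06 and 2.74 CPM without DOX and at 1.64 and 1.79 CPM with DOX. In *Xist* ΔA cells it stood at 2.95 and 2.53 CPM without DOX and at 2.47 and 2.34 CPM with DOX. All 6 noDOX libraries thus lay above all 6 DOX libraries in CPM from library totals, with a gap between 2.53 and 2.47 CPM that was set by *Xist* ΔA. The gap did not hold after the TMM scaling used in the tests. The factors were 1.0134 for *Xist* ΔA noDOX replicate 2 and 0.988 for *Xist* ΔA DOX replicate 1, which closed it.

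Averaged over the 3 lines, *Hist3h2ba* fell by 0.55 on the log2 scale (SE 0.12, 0.682-fold, lower in 6 of 6 pairs), with an adjusted p of 0.0377 in edgeR's quasi-likelihood test. It was the only one of the 6 histone genes called in this average. Of all genes tested, 4.05% were called, and 3.13% were called lower. Most of the lower calls were on the X chromosome, where 260 of 465 tested genes were lower, whereas 1.2% of autosomal genes were. On chromosome 11, 6 of 1113 tested genes were lower and 19 higher, and the median of the chromosome was 0.07. In CPM from library totals, expression that did not overlap between DOX and noDOX libraries, in the lower direction, was seen in 0.804% of all genes and in 0.252% of autosomal genes.

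Blocking on the replicate number gave an adjusted p of 0.00496 for this fall, in a fit that called 23.8% of all genes (13.3% lower). Within lines, the log2 difference of *Hist3h2ba* was -0.72 (SE 0.21) in *Xist* FL and -0.79 (SE 0.21) in *Xist* ΔB+C. Neither was called on its own in the fit without the block (adjusted p = 0.166 and 0.0831, edgeR), where 1.24% and 2.94% of all genes were called. Both were called with the block (adjusted p = 0.0283 and 0.0158), where 13.9% and 21.9% of all genes were called, 8.13% and 12% lower. Leaving out 1 library at a time, these calls held in 8 of 12 fits for *Xist* FL (adjusted p = 0.0243 to 0.171) and in 9 of 12 for *Xist* ΔB+C (0.0188 to 0.105). They were lost without any 1 of the 4 *Xist* FL libraries, and without either *Xist* ΔB+C noDOX library or DOX replicate 1. In *Xist* ΔA the difference was -0.15 (SE 0.21, adjusted p = 1 in edgeR), and 0.00758% of all genes were called.

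The lines were not shown to differ in this response. The difference between *Xist* ΔA and *Xist* FL was 0.57 (SE 0.29, adjusted p = 0.732 in edgeR, 0.259 with the block), and that between *Xist* ΔB+C and *Xist* ΔA was -0.64 (SE 0.30, adjusted p = 0.431, 0.158 with the block). *Xist* ΔB+C differed from *Xist* FL by -0.07 (SE 0.29), with an adjusted p of 1. None of the 6 histone genes was called for a difference in DOX response by edgeR, with or without the block, by DESeq2 or by limma, and none had an unadjusted p under 0.05 without the block. At that limit 0.804% of all genes differed for *Xist* ΔB+C against *Xist* FL, 7.44% for *Xist* ΔA against *Xist* FL and 12.1% for *Xist* ΔB+C against *Xist* ΔA. With the block, *Hist3h2ba* had an unadjusted p of 0.0379 in the last of these (edgeR). The share of all genes called was 0% for *Xist* ΔB+C against *Xist* FL in both fits. It was 0% without and 3.31% with the block for *Xist* ΔA against *Xist* FL, and 0.205% and 9.32% for *Xist* ΔB+C against *Xist* ΔA.

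Leaving out the 100 ng library, the average difference of *Hist3h2ba* was -0.58 (adjusted p = 0.0759 in edgeR) and -0.61 with the block (adjusted p = 0.0077). Leaving out any 1 library in the fit without the block kept the call in 1 of 12 cases (adjusted p = 0.0456 to 0.118), and in the fit with the block in 12 of 12 (adjusted p = 0.0077 to 0.0196).

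**Figure D2:**
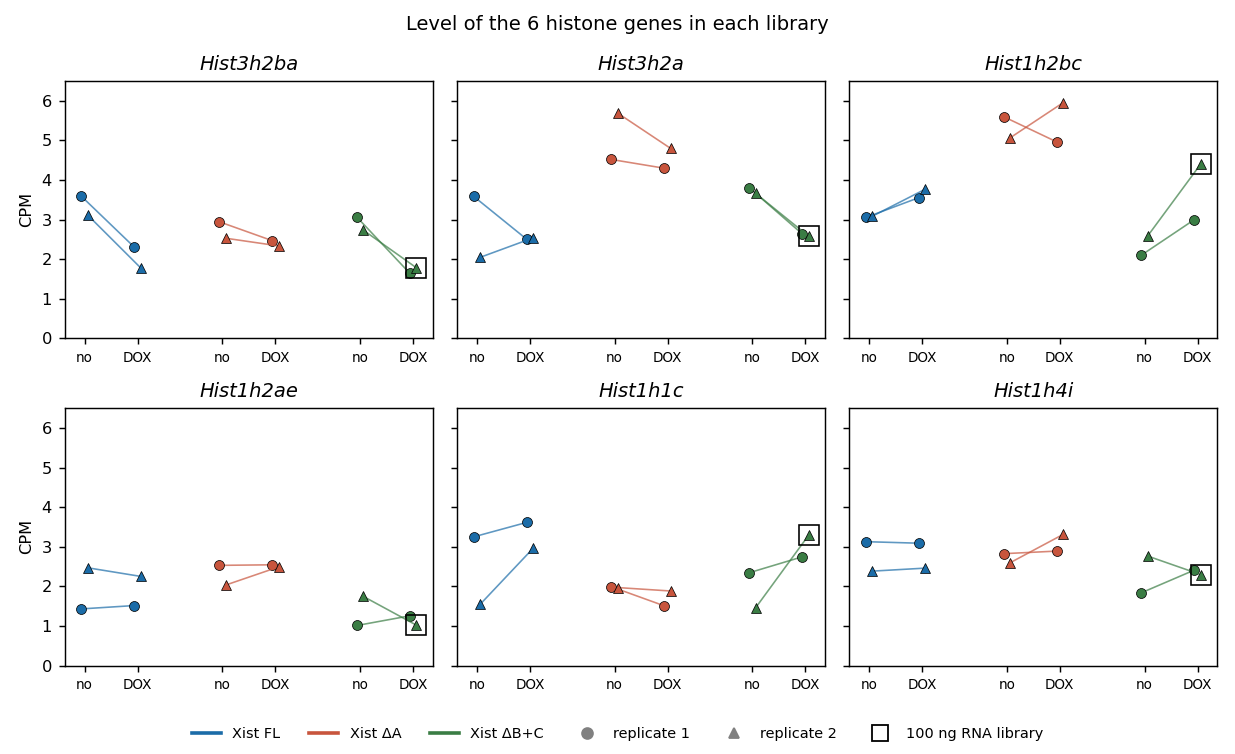
CPM of each of the 6 histone genes in all 12 libraries, with noDOX (no) and DOX libraries side by side for each line; lines join libraries with the same replicate number, and the open square marks the library made from 100 ng RNA. *Hist3h2ba* is lower with DOX in each of the 6 pairs, and *Hist1h2bc* and *Hist3h2a* are higher in all 4 *Xist* ΔA libraries than in any other.

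*Hist3h2a*, which encodes an H2A, lies 5765 bases downstream of *Hist3h2ba* (start to start, chr11:58954685-58956830, plus strand). It stood at 3.81 and 3.67 CPM in *Xist* ΔB+C without DOX and at 2.64 and 2.58 CPM with DOX. In *Xist* FL it stood at 3.59 and 2.05 CPM without DOX and at 2.51 and 2.54 CPM with DOX. In *Xist* ΔA it stood at 4.52 and 5.69 CPM without DOX and at 4.30 and 4.80 CPM with DOX. It was lower with DOX in 5 of 6 pairs, the exception being *Xist* FL replicate 2. The log2 differences were -0.55 (SE 0.26) in *Xist* ΔB+C, -0.17 (SE 0.26) in *Xist* FL and -0.12 (SE 0.25) in *Xist* ΔA, and the average of -0.28 (SE 0.15, adjusted p = 0.338 in edgeR) was not called.

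Of the other genes around these Hist3 genes, *Rnf187*, *Trim11* and *Zfp39* passed the filter. Averaged over the lines, their log2 differences were -0.12 (SE 0.12), 0.06 (SE 0.08) and -0.18 (SE 0.10), and none was called in edgeR (adjusted p = 0.622, 0.716 and 0.376). *Trim17* did not pass, at between 0.198 and 1.70 CPM. Its *Xist* ΔA libraries (0.198 to 0.486 CPM) lay below all others (0.606 CPM or more), and any part of this in the *Hist3h2a* values was not tested.

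The 250 bases before the RefSeq start of both Hist3 genes are shown because these neighbours belong to different classes and one of them was called with DOX. They come from the RefSeq promoters on GRCm38.p6, 5′ to 3′ on the plus strand. The RefSeq start of *Hist3h2ba* lies 9 bases before the GENCODE start given above, and for *Hist3h2a* the starts coincide. Capitals mark CCAAT, the box bound by NF-Y, and TATAAA, a form of the TATA box. Each was searched as exact letters on both strands (ATTGG and TTTATA on the other).
*Hist3h2ba*, chr11:58948661-58948910: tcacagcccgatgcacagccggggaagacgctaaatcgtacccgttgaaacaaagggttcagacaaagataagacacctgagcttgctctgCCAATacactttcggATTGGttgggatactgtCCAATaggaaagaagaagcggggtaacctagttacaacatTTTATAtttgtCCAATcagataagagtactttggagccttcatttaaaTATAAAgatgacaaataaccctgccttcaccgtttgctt
*Hist3h2a*, chr11:58954435-58954684: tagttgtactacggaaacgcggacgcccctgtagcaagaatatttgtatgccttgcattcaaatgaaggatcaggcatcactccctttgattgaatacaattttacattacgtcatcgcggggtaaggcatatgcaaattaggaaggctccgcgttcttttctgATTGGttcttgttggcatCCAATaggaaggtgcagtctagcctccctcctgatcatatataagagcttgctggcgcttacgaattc

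The *Hist3h2ba* promoter thus held CCAAT at 3 places and its reverse once, TATAAA 39 bases before the RefSeq start and TTTATA once. The *Hist3h2a* promoter held CCAAT and its reverse once each and not the exact letters TATAAA. Near its end the sequence reads tatataag, a close variant that the search did not count, so a TATA box was not shown to be absent. RefSeq promoters of 300 bases were found for 5 of the 6 genes, and CCAAT was in 4 of them, against 48 of 56 of the other histone genes and 37.4% of all 32851 promoters. TATAAA was in 3 of the 5, in 32 of the 56 and in 13.6% of all promoters. These counts take the exact letters anywhere in the 300 bases on either strand, so they are not counts of TATA boxes. Both sets of histone genes thus held these letters in a larger share than promoters at large. A match is a description of letters and not a bound site.

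*Hist1h2bc*, on chromosome 13 (chr13:23684199-23692908, plus strand, 2 exons), stood at 3.06 and 3.09 CPM in *Xist* FL without DOX and at 3.56 and 3.77 CPM with DOX. In *Xist* ΔB+C it stood at 2.10 and 2.59 CPM without DOX and at 3.001 and 4.40 CPM with DOX. In *Xist* ΔA it stood at 5.60 and 5.06 CPM without DOX and at 4.97 and 5.95 CPM with DOX. It was higher with DOX in 5 of 6 pairs, the exception being *Xist* ΔA replicate 1. The log2 differences were 0.25 (SE 0.23) in *Xist* FL, 0.62 (SE 0.23) in *Xist* ΔB+C and 0.07 (SE 0.22) in *Xist* ΔA.

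None of these passed the threshold in the fit without the block. With it, *Hist1h2bc* was called higher with DOX in *Xist* ΔB+C, at 0.61 and an adjusted p of 0.0493 (edgeR, 0.189 without the block), where 9.89% of all genes were called higher. The highest of the 4 *Xist* ΔB+C values was that of the 100 ng library. Without it the difference was 0.37 with the block (adjusted p = 0.332) and 0.31 without the block (adjusted p = 0.609), and leaving out any 1 library kept the call in 1 of 12 fits. Averaged over the lines the difference was 0.32 (SE 0.13, adjusted p = 0.227 in edgeR, 0.0669 with the block).

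*Hist1h1c*, on chromosome 13 (chr13:23738808-23740367, plus strand, 1 exon), stood at 3.25 and 1.54 CPM in *Xist* FL without DOX and at 3.61 and 2.96 CPM with DOX. In *Xist* ΔB+C it stood at 2.34 and 1.45 CPM without DOX and at 2.74 and 3.29 CPM with DOX. In *Xist* ΔA it stood at 1.99 and 1.97 CPM without DOX and at 1.51 and 1.88 CPM with DOX. The 4 *Xist* FL and *Xist* ΔB+C pairs were higher with DOX and the 2 *Xist* ΔA pairs lower, but replicate 2 without DOX was far below replicate 1 in 2 lines. The average of 0.30 (SE 0.21, adjusted p = 0.470 in edgeR) was not called.

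The other Hist1 genes overlapped between DOX and noDOX libraries. *Hist1h4i* (chr13:22040636-22041362, minus strand) ranged from 1.84 to 3.13 CPM over the 6 noDOX libraries (median 2.68) and from 2.30 to 3.31 CPM over the 6 DOX libraries (median 2.68). *Hist1h2ae* (chr13:23570517-23571220, minus strand) ranged from 1.01 to 2.53 CPM without DOX (median 1.89) and from 1.02 to 2.54 CPM with DOX (median 1.88). Their average log2 differences were 0.08 (SE 0.15) and -0.06 (SE 0.21), with adjusted p of 0.816 and 0.915 in edgeR.

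**Figure D3:**
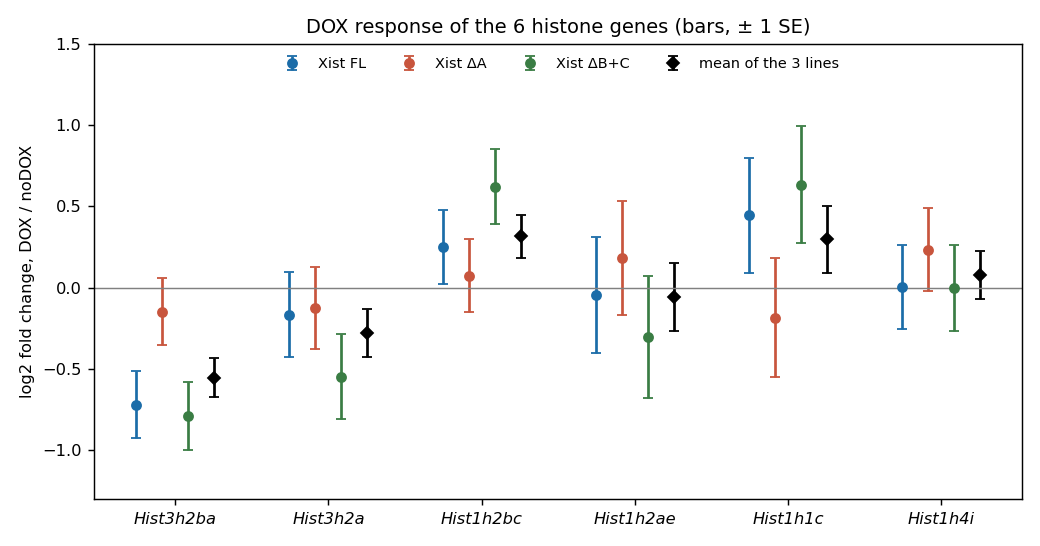
Log2 fold change of DOX over noDOX for each of the 6 histone genes, from the edgeR fit without a replicate block, in the 3 lines (circles) and averaged over them (diamonds); bars are ± 1 SE. *Hist3h2ba* stands at -0.72 for *Xist* FL and at -0.79 for *Xist* ΔB+C, and its average is the only one called.

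Over the 6 genes, the median log2 difference averaged over the lines was 0.012, against -0.003 over all genes tested. The summed level of the 69 histone genes in a DOX library was between 0.972 and 1.11 times that in its noDOX partner, over 6 pairs of libraries.

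The second comparison set the lines against each other without DOX. Over DOX and noDOX libraries together, the levels of *Hist1h2bc* and *Hist3h2a* lay highest in *Xist* ΔA. The H2B gene *Hist1h2bc* lay between 4.97 and 5.95 CPM in the 4 *Xist* ΔA libraries, DOX and noDOX together, between 3.06 and 3.77 CPM in *Xist* FL and between 2.10 and 4.40 CPM in *Xist* ΔB+C. The H2A gene *Hist3h2a* lay between 4.30 and 5.69 CPM in *Xist* ΔA, between 2.05 and 3.59 CPM in *Xist* FL and between 2.58 and 3.81 CPM in *Xist* ΔB+C. For both genes the *Xist* ΔA libraries did not overlap the other 8, which held, in the higher direction, for 2 of the 6 histone genes and for 8.29% of all genes.

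In the noDOX libraries alone, *Hist1h2bc* was lower by 1.16 on the log2 scale in *Xist* ΔB+C than in *Xist* ΔA (SE 0.23, 0.449-fold, adjusted p = 0.0238 in edgeR, 0.00149 with the block). It was the 1 called of 6 histone genes, where 6.69% of all genes were called, 2.87% lower (27.9% with the block). Leaving out either *Xist* ΔA noDOX library or either *Xist* ΔB+C noDOX library ended this call without the block (adjusted p = 0.0720 to 0.147) but not with it (at most 0.0253).

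Between *Xist* ΔA and *Xist* FL, *Hist1h2bc* differed by 0.78 (SE 0.23) and *Hist3h2a* by 0.83 (SE 0.26), both higher in *Xist* ΔA. Neither was called without the block (adjusted p = 0.0630 and 0.0756 in edgeR, with 9.84% of all genes called), and both were with it (adjusted p = 0.00876 and 0.0194, with 33.4% called, 16.2% higher). Leaving out *Xist* FL noDOX replicate 2 ended both calls with the block, at 0.69 for *Hist1h2bc* (adjusted p = 0.0734) and 0.43 for *Hist3h2a* (adjusted p = 0.187). *Hist1h2bc* also lost its call without *Xist* ΔA noDOX replicate 1 (0.57, adjusted p = 0.113), and *Hist3h2a* without *Xist* ΔA noDOX replicate 2 (0.60, adjusted p = 0.163).

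Between *Xist* ΔB+C and *Xist* ΔA without DOX, *Hist3h2a* differed by -0.42 (SE 0.25) and was not called (adjusted p = 0.368 in edgeR, 0.198 with the block). It lies on chromosome 11, whose median difference between *Xist* ΔA and *Xist* FL was -0.35 on the log2 scale, with 259 of 1113 genes called lower and 7 higher. Its neighbour *Hist3h2ba* lay between 2.34 and 2.95 CPM in *Xist* ΔA and between 1.78 and 3.59 CPM in *Xist* FL, which overlapped.

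Between *Xist* ΔB+C and the *Xist* FL line it was made from, 0 of the 6 genes and 0.0227% of all genes were called (edgeR). At an unadjusted p under 0.05, 0 of the 6 and 5.84% of all genes differed. The differences were -0.38 (SE 0.23) for *Hist1h2bc*, 0.41 (SE 0.26) for *Hist3h2a* and -0.49 (SE 0.36) for *Hist1h2ae*. For *Hist1h2ae* the 4 *Xist* ΔB+C libraries lay between 1.01 and 1.75 CPM, below the 4 *Xist* ΔA libraries at 2.03 to 2.54 CPM. Such a gap in this direction was seen in 3 of the 6 histone genes and in 11.7% of all genes, and the noDOX difference of -0.70 (SE 0.36, adjusted p = 0.288 in edgeR) was not called.

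Some markers of other cell types differed between the lines too. Of the 3 mesendoderm markers tested, 2 (*Eomes* and *Mixl1*) were lower in *Xist* ΔA than in *Xist* FL, where 5.54% of all genes were lower. The summed level of the 4 markers on that list lay between 37.7 and 60.9 CPM in *Xist* ΔA libraries, 35.8 and 241 CPM in *Xist* FL libraries and 38.9 and 203 CPM in *Xist* ΔB+C libraries. Fibroblast markers, of which none of the 3 tested was called, summed to between 9.84 and 16.8 CPM in *Xist* ΔA, 19.3 and 52.8 CPM in *Xist* FL and 22.9 and 40.0 CPM in *Xist* ΔB+C. Among them *Postn* was at or near 0 in all libraries, with at most 0.321 CPM. None of the 7 pluripotency, 4 formative and 6 primitive endoderm markers was called between *Xist* ΔA and *Xist* FL in the fit without the block. With it, 2 pluripotency markers were higher and 1 lower, and 2 formative markers and 1 primitive endoderm marker were higher. In the same fit 1 fibroblast marker and all 3 mesendoderm markers tested were lower. That fit called 16.2% of all genes higher and 17.2% lower. *Rpph1*, the short RNA without a poly(A) tail, was lower in *Xist* ΔA by 2.53 (SE 0.25, adjusted p = 0.000667 in edgeR). The part of these in the histone differences was not tested.

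By class, the summed H2A level was highest in *Xist* ΔA, at between 10.8 and 13.2 CPM in its 4 libraries, against 6.73 to 9.95 CPM in *Xist* FL and 6.41 to 9.40 CPM in *Xist* ΔB+C. The summed H1 level was between 4.35 and 4.81 CPM in *Xist* FL and between 2.96 and 3.70 CPM in *Xist* ΔA, with *Xist* ΔB+C (2.76 to 4.66 CPM) spanning both. H3 was lowest in *Xist* ΔB+C, at 1.92 to 3.45 CPM, against 3.49 to 6.49 CPM in *Xist* FL and 4.89 to 5.63 CPM in *Xist* ΔA. H2B lay between 7.36 and 9.22 CPM in *Xist* ΔB+C, 8.54 and 11.3 CPM in *Xist* FL and 11.1 and 13.3 CPM in *Xist* ΔA, and H4 between 4.66 and 6.55, 7.29 and 8.72, and 6.06 and 7.86 CPM. The totals are descriptions, with no test. Over the 12 libraries, the genes that passed the filter gave 62.5% of the H1 counts, 58.1% of the H2A counts and 63.7% of the H2B counts, so these sums are not independent of the genes already named. The share was 38.7% for H4 and 0% for H3.

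The third comparison was between replicate numbers 1 and 2, which gave more calls than any other contrast made, at 46.3% of all genes tested. None of the 6 histone genes was called by edgeR, DESeq2 or limma, and none had an unadjusted p under 0.05 in edgeR, where 53.8% of all genes did. In none of the 6 did replicate 2 libraries lie wholly above replicate 1 libraries, which 2.62% of all genes did. Their log2 differences (replicate 2 minus 1) ran from -0.24 (SE 0.18) for *Hist1h1c* to 0.25 (SE 0.18) for *Hist1h2ae*, with SEs of 0.11 to 0.18. *Hist3h2ba* differed by -0.15 (SE 0.11).

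The summed level of the histone genes under the filter was higher in replicate 2 than in replicate 1 in 6 of 6 pairs, by ratios of between 1.10 and 1.65 (median 1.36). In *Xist* FL without DOX it was 14.2 CPM in replicate 1 and 23.3 CPM in replicate 2, and with DOX 15.1 and 24.0 CPM. In *Xist* ΔB+C it was 10.9 and 16.3 CPM without DOX and 12.2 and 15.0 CPM with DOX. In *Xist* ΔA, where the change was smallest, it was 17.6 and 19.3 CPM without DOX and 20.7 and 23.0 CPM with DOX. The summed level of the 6 genes that passed was higher in 3 of 6 pairs, by ratios of between 0.812 and 1.12.

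In a fit without the filter on low counts, 7 of the 55 other histone genes that could be fitted were called higher in replicate 2 and none lower, and 45 of 55 had a positive difference, with a median of 0.35. In that fit 13.8% of all genes were called higher and 16.5% lower, so the 12.7% of histone genes called higher lay near the share of all genes. Whether they differed from the 6 genes that passed was not tested. The 7 called higher were the H2A genes *Hist1h2ai* (1.24, SE 0.24), *Hist1h2ag* (1.07, SE 0.32) and *Hist1h2an* (0.76, SE 0.27), the H3 genes *Hist1h3c* (0.80, SE 0.19) and *Hist1h3h* (0.85, SE 0.29), the H2B gene *Hist1h2bh* (1.31, SE 0.43) and the H1 gene *Hist1h1d* (0.85, SE 0.28). *Hist1h3c* stood at 0.359 to 0.988 CPM in the 6 replicate 1 libraries and 0.511 to 2.20 CPM in the 6 replicate 2 libraries, and was higher in replicate 2 in 6 of 6 pairs. *Hist1h2ai* stood at between 8 and 15 counts in replicate 1 libraries and between 18 and 43 in replicate 2 libraries. As a class, H3 was higher in replicate 2 in 5 of 6 pairs, by a median ratio of 1.64, and H2A in 6 of 6, by 1.24, whereas H1 was higher in 2 of 6 (median ratio 0.965). Outside the comparison of replicate numbers, 1 of the 55 was called in the fit without the filter, *Hist1h2bm*, lower in *Xist* ΔA than in *Xist* FL, where 3.12% of all genes were called lower.

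**Figure D4:**
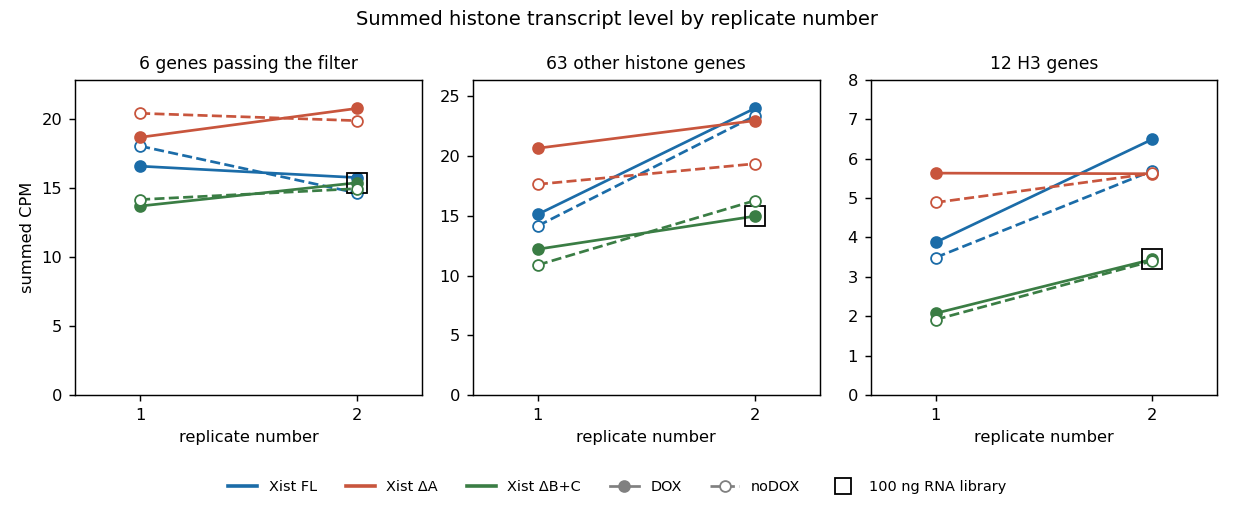
Summed CPM of the 6 histone genes that passed the filter, of the 63 that did not, and of the 12 H3 genes, in replicates 1 and 2 of each group; colours give the line, filled points and solid lines DOX, open points and dashed lines noDOX, and the square the 100 ng library. The sum of the 63 genes is higher in replicate 2 in 6 of 6 pairs (ratios 1.10 to 1.65) and that of the 6 genes in 3 of 6.

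Other genes moved with the replicate number. Of 31 S-phase and replication genes, 12 were higher in replicate 2 and 3 lower, where 22.7% of all genes were higher and 23.5% lower. Those with the smallest p were *Cdc6* (0.31, SE 0.04), which loads the replicative helicase, *E2f1* (0.43, SE 0.06), a transcription factor of S-phase entry, *Cdt1* (0.36, SE 0.06), a licensing factor, and the helicase subunits *Mcm3* and *Mcm7* (0.21 for both, SE 0.04). Among those lower were *Ccne2* and *Pcna*. The summed level of the list lay between 5941 and 6750 CPM in replicate 1 and between 6514 and 7242 CPM in replicate 2. Pluripotency markers were higher in 5 of 7 cases and mesendoderm markers lower in 3 of 3 tested, among them *T* at -1.38 (SE 0.36). The part of these in the histone difference was not tested, and what the replicate number stands for is not in the labels.

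For each of the 6 genes, the library made from 100 ng RNA stood inside the range of the other 11, and its depth was the lowest of the 12. In a fit with the replicate number and a term for this library, 0 of the 6 histone genes and 0% of all genes were called (edgeR), and 11.9% of all genes but 0 of the 6 had an unadjusted p under 0.05. DESeq2 and limma also called 0 of the 6. The log2 differences attributed to it ran from -0.62 (SE 0.53) for *Hist1h2ae* to 0.63 (SE 0.45) for *Hist1h1c*, and with 1 such library differences of this size were not detectable. It had the highest *Hist1h2bc* (4.40 CPM) and *Hist1h1c* (3.29 CPM) values of the 4 *Xist* ΔB+C libraries. Its summed level of all 69 genes, 30.3 CPM, lay between the 25.1 and 31.2 CPM of the *Xist* ΔB+C noDOX libraries.

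All 18 listed factors that make and process histone mRNA were tested. Averaged over the lines, 3.13% of all genes were called lower with DOX and 0.917% higher. Of the 18 factors, 1 was called lower and 0 higher. It was *Cstf2*, which encodes the cleavage stimulation factor subunit CstF64 and is X-linked (-0.26, SE 0.05, adjusted p = 0.016 in edgeR). *Slbp*, at between 97.4 and 129 CPM, differed by -0.03 (SE 0.05), and *Npat*, at between 45.0 and 63.6 CPM, by -0.09 (SE 0.10). *Npat* was lower in replicate 2 by 0.26 (SE 0.04). On this list 5 were lower and 3 higher in replicate 2, where 23.5% of all genes were lower and 22.7% higher.

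Of the 31 S-phase and replication genes, 1 fell with DOX averaged over the lines, *Pola1*, the X-linked gene of the catalytic subunit of DNA polymerase alpha (-0.53, SE 0.07, adjusted p = 0.00371 in edgeR). Of all genes, 3.13% were called lower and 0.917% higher in this average. *Pola1* also fell in *Xist* FL by 0.77 (SE 0.12) and in *Xist* ΔB+C by 0.81 (SE 0.12). None of 17 histone chaperones and none of 15 G2 and mitosis genes was called with DOX in the average over the lines. Of the 11 replication-independent variants *H2afv* alone was (0.25, SE 0.05, adjusted p = 0.0303 in edgeR). The median of the S-phase list was -0.03 and that of all genes -0.003. In the fit with the block, 8 of the 31 S-phase genes were lower and 0 higher, against 13.3% lower of all genes, and so were 3 histone chaperones, 3 G2 and mitosis genes and 3 of the 18 factors, with none higher.

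Among the marker lists, the mesendoderm gene *Eomes* (-0.91, SE 0.17) and the formative gene *Fgf5* (-0.83, SE 0.18) were lower with DOX in the average over the lines. They were 1 of 3 and 1 of 4 tested, where 3.13% of all genes and 1.2% of autosomal genes were lower. The summed mesendoderm level lay between 37.7 and 241 CPM without DOX and between 35.8 and 135 CPM with DOX. No pluripotency, primitive endoderm or fibroblast marker was called, out of 7, 6 and 3 tested. With the block, 2 pluripotency markers were higher, where 10.5% of all genes were. In that fit 2 formative and 2 mesendoderm markers were lower, where 13.3% of all genes were, and no primitive endoderm or fibroblast marker was called. *Hist3h2ba* was called lower in the same average as *Eomes* and *Fgf5*, and any part of these genes in its fall was not tested.

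Between the lines without DOX, a few genes of the lists were called in the fit without the block. Against *Xist* FL, *Xist* ΔA had 3 S-phase genes higher (*Tyms*, *Mcm4* and *Pole*), 1 lower (*Tk1*), and 2 of the 15 G2 and mitosis genes lower (*Top2a* and *Birc5*). Of all genes, 4.3% were higher and 5.54% lower in this comparison. The summed S-phase level of *Xist* ΔA lay between 6735 and 7242 CPM, above the 6084 to 6562 CPM of *Xist* FL. Against *Xist* ΔA, *Xist* ΔB+C had *Gins2* and *Fen1* higher and *Tyms* lower among the S-phase genes, and *Upf1*, which takes part in histone mRNA decay, higher (0.31, SE 0.07, adjusted p = 0.02995 in edgeR). There 3.81% of all genes were higher and 2.87% lower. More of the listed genes were called with the block. Against *Xist* FL, *Xist* ΔA then had 9 S-phase genes higher and 4 lower of 31, and 1 G2 and mitosis gene higher and 4 lower of 15, where 16.2% of all genes were higher and 17.2% lower. Against *Xist* ΔA, *Xist* ΔB+C then had 4 S-phase genes higher and 7 lower, and 6 G2 and mitosis genes higher and 0 lower, where 15.2% of all genes were higher and 12.8% lower.

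Across the 12 libraries, the levels of the 6 genes were only loosely related to each other. The strongest relations, given as a description of libraries that share lines and depth, were between *Hist1h2ae* and *Hist1h2bc* (Pearson's r = 0.59, Spearman's rho = 0.68) and between *Hist1h2ae* and *Hist1h1c* (r = -0.61, rho = -0.59). The adjacent *Hist3h2ba* and *Hist3h2a* had r = 0.33 and rho = 0.18.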

How the data were processed

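RNA-seq libraries were grouped by their labels into 3 lines, each with and without DOX. The authors mapped 150-bp read pairs to mm10 with TopHat 2.1.0 and counted pairs over refFlat exons with featureCounts 1.5.1 (versions per the labels and methods). They deposited raw counts, not normalized, 1 file per library. Strand was not stated to be used, so overlapping genes cannot be told apart. The noDOX replicate 1 files carry the word DOX in their names. The labels were followed.

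CPM were computed from library totals. The 13191 genes that reached 1 CPM in 6 or more of the 12 libraries were tested with edgeR 4.0.16 in R 4.3.3 (quasi-likelihood, robust, 6 group means), with TMM factors from expressed autosomal genes (0.978 to 1.02) and Benjamini–Hochberg adjustment over all of them at 0.05. Libraries with the same replicate number deviated together (r = 0.389 to 0.775 in 15 of 15 pairs of groups), so results are also given with the replicate number as a block. DESeq2 1.42.0 and limma 3.58.1 (voom) were alternatives. The steps were tested on simulated counts. The histone genes, gene lists and tests were chosen with earlier results of these data known. Genes were named by rule: the 2 highest of each histone class, those called in a comparison or else the 2 with the smallest p, every Hist2, Hist3 or Hist4 gene that passed, *Xist*, *Slbp*, *Npat* and up to 5 called genes of each list. Flanking genes and genes under the filter were named after their values were seen. One gene of the S-phase list is not reported here by name.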

Additional observations from a re-analysis of the deposited data

Results flagged for a closer look

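*Hist1h1c* differed between DOX and noDOX libraries in opposite directions in different lines. Both *Xist* ΔA pairs were lower with DOX, and all 4 pairs of the other lines were higher. The fitted difference of the response was -0.63 (SE 0.51) between *Xist* ΔA and *Xist* FL and 0.82 (SE 0.51) between *Xist* ΔB+C and *Xist* ΔA. Neither passed the test of the difference (adjusted p = 0.868 and 0.595 in edgeR, 0.450 and 0.266 with the replicate block), so the lines were not shown to differ. Groups of 2 libraries are too small for a test of single libraries that stand apart.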

How the results depend on the processing

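Values rest on 32 to 228 counts per gene and library and on 2 replicates. At a minimum of 5 CPM none of the 6 genes was left. For the genes named, 278 of 288 alternatives other than leaving out a library kept the direction and the side of the threshold, and none reversed. Most of these were for results not called in the main fit, so this count says little about the calls. The averaged fall of *Hist3h2ba* was called in 6 of 7 such alternatives. The *Hist1h2bc* difference between *Xist* ΔB+C and *Xist* ΔA was called in 7 of 8. The replicate block moved the number of the 6 genes called from 0 to 1 in *Xist* FL with DOX, from 0 to 2 in *Xist* ΔB+C with DOX and from 0 to 2 between *Xist* ΔA and *Xist* FL, and changed no other call of the 6 genes. DESeq2 called 2 between *Xist* ΔA and *Xist* FL, and a fit of only those lines 1. A fit of only *Xist* ΔB+C and *Xist* ΔA called 0, with *Hist1h2bc* at -1.16 (adjusted p = 0.0717). Without the filter on low counts 0 were called with DOX averaged over the lines, with *Hist3h2ba* at -0.56 (adjusted p = 0.0631). The causes were not tested.

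Leaving out 1 library at a time gave 0 to 1 of the 6 genes called with DOX averaged over the lines (1 to 2 with the block), 0 to 1 with the block within *Xist* FL or within *Xist* ΔB+C, 0 to 1 between *Xist* ΔA and *Xist* FL (0 to 2 with the block), and 0 to 1 between *Xist* ΔB+C and *Xist* ΔA. Signs changed among these fits for values that were not called. The averaged DOX difference ran from -0.18 to 0.10 for *Hist1h2ae* (-0.16 to 0.09 with the block) and from -0.02 to 0.19 for *Hist1h4i* (-0.038 to 0.22). *Hist3h2a* ran from -0.51 to 0.30 in *Xist* FL (-0.56 to 0.35) and from -0.28 to 0.05 in *Xist* ΔA (-0.34 to 0.11). *Hist1h2bc* ran from -0.07 to 0.21 in *Xist* ΔA (-0.13 to 0.27), and *Hist1h1c* there from -0.52 to 0.15 with the block. Between *Xist* ΔA and *Xist* FL without DOX, *Hist1h2ae* ran from -0.13 to 0.66 (-0.12 to 0.60). The response of *Xist* ΔB+C minus that of *Xist* FL ran from -0.24 to 0.12 for *Hist3h2ba* (-0.23 to 0.10) and from -0.45 to 0.61 for *Hist1h1c* (-0.42 to 0.58). The fits with the block and 1 library left out were chosen after seeing the data.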

Other observations

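*Hist1h2bm*, an H2B gene under the filter, was called lower in *Xist* ΔA than in *Xist* FL without DOX when no filter was used. It had 0 and 2 counts in the *Xist* ΔA noDOX libraries and 12 and 26 in the *Xist* FL noDOX libraries (adjusted p = 0.0298 in edgeR). It had 9 and 6 counts in *Xist* ΔB+C without DOX, and with DOX 4 and 11 counts in *Xist* ΔA and 13 and 17 in *Xist* FL. It was the only call among the 55 histone genes under the filter outside the comparison of replicate numbers.

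*Prss16*, the nearest gene to *Hist1h4i* that is not a histone gene and passed the filter, had a log2 difference of DOX against noDOX of -0.68 in *Xist* ΔB+C (SE 0.20, adjusted p = 0.110 in edgeR, 0.0222 with the block). *Rnf187*, 10004 bases from *Hist3h2ba* between starts, stood there at -0.39 (SE 0.21, adjusted p = 0.364 in edgeR, 0.0215 with the block). In this line 2.94% of all genes were called with DOX without the block and 21.9% with it, 12% lower.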
